A study of Mus musculus with 4 samples.

Results

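Gene expression was compared between a Dp16 mouse and a wild-type mouse in matched neural tissue of the brain, where matched means that the same anatomical region and the same expression cluster were set side by side. The data were Visium spatial transcriptomes, in which barcoded spots on a slide capture the RNA of the tissue above them. A spot is a small region that can hold several cells of different types, or parts of them. Each genotype was represented by 1 section of 1 brain hemisphere, 10 µm thick and cut within bregma 1 to -2 mm, from a male mouse of 9 months: wild-type (strain C57BL/6J), Dp16, 5xFAD and 5xFAD-Dp16. The Dp16 genotype is a duplication of a stretch of mouse chromosome 16 that every cell carries, and 5xFAD adds transgenes of human genes with mutations of familial Alzheimer's disease, driven by a neuronal promoter. The members were all spots of the Dp16 and wild-type sections outside clusters 10, 12, 13, 15, 17 and 21, in strata (a stratum is 1 region label with 1 cluster) that held at least 15 spots of each section. This left 22 strata from 10 of 17 region names, with 1804 of the 2721 wild-type spots and 1237 of the 2540 Dp16 spots, of 10549 spots in the whole series. Of the spots outside the 6 clusters, these were 79.6% in wild-type and 53.7% in Dp16.

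The duplicated stretch is orthologous to a large part of the human chromosome that is trisomic in Down syndrome, so that a Dp16 mouse has an extra copy of each gene in it. Among these genes are App, the precursor of amyloid-beta, Dyrk1a, a kinase of neuronal development, Sod1, an antioxidant enzyme, and several receptors for interferons. An extra copy tends to raise the transcript level in proportion, and feedback or mRNA turnover can hold a gene below that.

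The matched spots held 22995119 UMIs (molecules counted once) in wild-type and 12580269 in Dp16, with medians of 11743 and 8985 UMIs per spot. The median percent of mitochondrial counts was 15.6 and 16.7. Across the 22 strata the log2 ratio of median UMIs per spot ranged from -1.12 (Cortex AUC, cluster 2) to 0.29 (Cortex OLF, cluster 7) and was below 0 in 15. The region labelled Hypothalamus gave no stratum, since it held 36 such spots in wild-type and 322 in Dp16. The largest stratum was Thalamus, cluster 1, with 447 and 157 spots and 19.9% of the weight. Both sections carried the defining markers of neurons (5 of 5, summing to 3894 CPM for wild-type and 3255 for Dp16), oligodendrocytes (4 of 4, 7863 and 7662 CPM) and astrocytes (4 of 4, 1057 and 918 CPM). CPM is here a gene's UMIs per 1000000 UMIs of a stratum, averaged over strata with the same weights in both sections. Mbp, a myelin protein gene, was highest in the region labelled FB, at 14267 and 13652 CPM, against 3764 and 4313 CPM in the next highest, Thalamus. In spots, fewer cells of a type and less RNA per cell cannot be told apart.

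Levels are given throughout with wild-type first and Dp16 second. Each ratio is the log2 of Dp16 over wild-type after the median of all genes tested, -0.08, was taken off. The 10912 genes whose mean over both sections reached 5 CPM were tested for size, and 1.5-fold, a log2 of 0.58, served as a fixed size. With 1 section per genotype there was no replicate spread, no p-value was computed, and the interval after each ratio is a 95% interval of counting error only. The same matching was applied to 5xFAD-Dp16 over 5xFAD (31 strata), called the second pair, which shares no section with the first.

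Genes of the duplicated segment were higher in Dp16 as a group, in every stratum. The segment (chr16:75540514-97962627, GRCm38, from the start of Lipi to the end of Zbtb21) held 112 genes of the table, of which 69 were tested. Of these, 66 lay above the median of all genes (49.7% of genes outside the segment did), 32 were at least 1.5-fold higher and 0 were 1.5-fold lower. Among all genes tested 1.04% were at least 1.5-fold higher and 1.12% lower. The median of the 69 was 0.56. In the second pair it was also 0.56, with 67 above and 34 at least 1.5-fold higher, where 49.7% of genes outside the segment lay above and 0.877% of all genes were that much higher. In both pairs 64 of the 68 genes tested in each lay above, and 20 were at least 1.5-fold higher in both. Over the 22 strata the segment's median ran from 0.38 (CNU, cluster 14) to 0.68 (Cortex RSP, IL, cluster 2). The 277 tested genes on the rest of chromosome 16 had a median of -0.00, with 136 above and 141 below. The filter uses the mean of both sections, so that a gene low in wild-type can pass through Dp16, and 2 of the 69 (Bace2 and Clic6) were below 5 CPM in wild-type. With the filter at 1 and at 20 CPM the segment's median was 0.56 and 0.55.

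**Figure D1:**
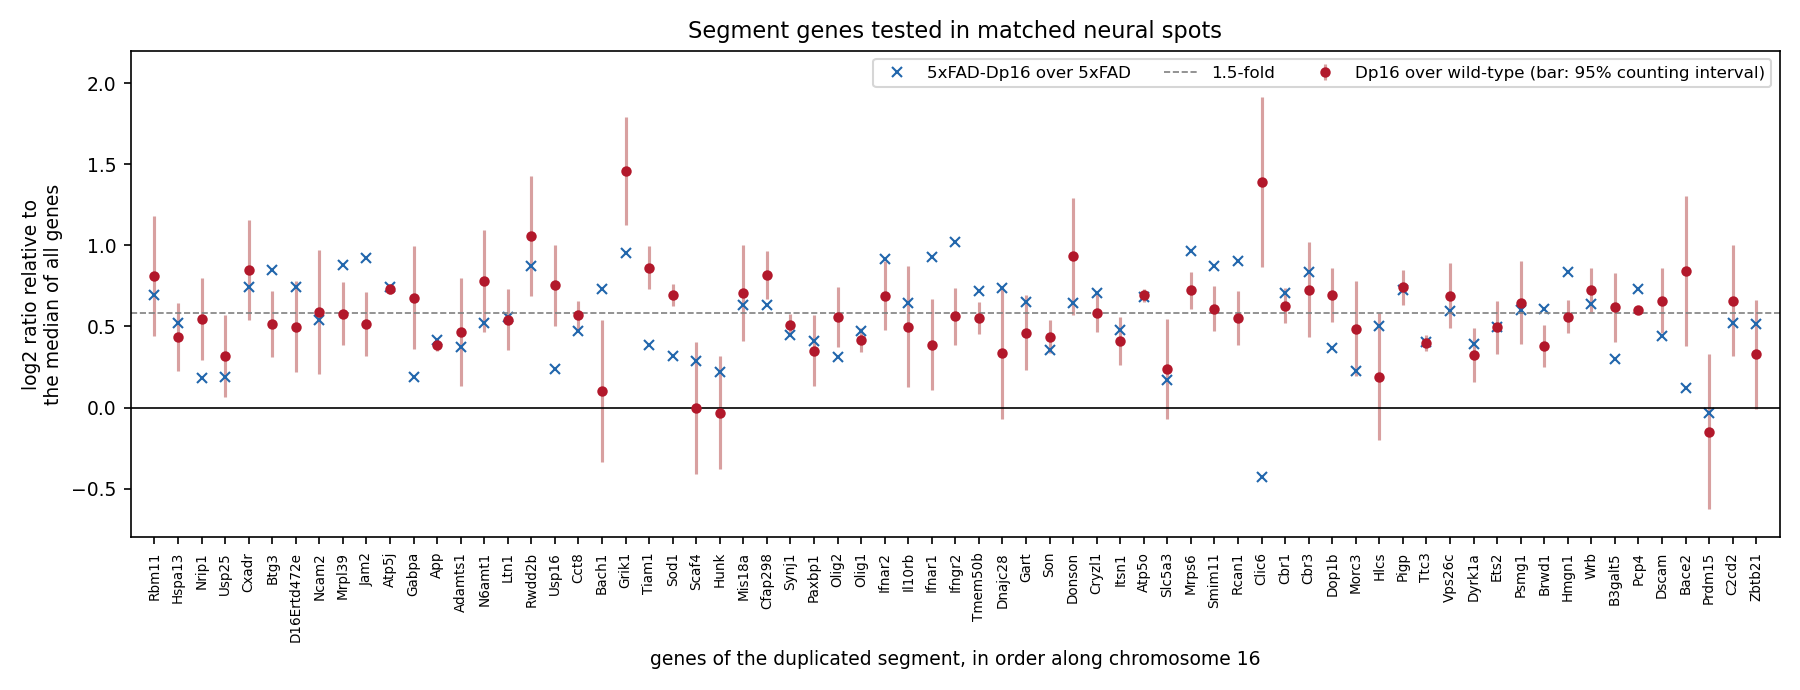
Log2 ratios of the 69 tested segment genes in their order along chromosome 16, relative to the median of all genes, for Dp16 over wild-type (circles, with 95% counting intervals) and 5xFAD-Dp16 over 5xFAD (crosses). Of the circles 66 lie above 0, around the dashed line of 1.5-fold, and Prdm15, Hunk and Scaf4 lie just below 0.

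Of the segment's role groups, the one named for mitochondria and redox had the highest median, 0.69 (0.72 in the second pair). In it 10 of 10 genes were above and 8 at least 1.5-fold higher. The group also held Slc5a3 and Rwdd2b, so that it was not made of mitochondrial and redox genes alone. Atp5j, a subunit of ATP synthase, stood at 864 and 1356 CPM (0.73, 0.70 to 0.76) and was higher in 22 of 22 strata. Atp5o, another subunit of the same enzyme, stood at 539 and 824 CPM (0.69, 0.65 to 0.73) and was also higher in 22 of 22 strata. Thus both subunits were higher in every matched part of the brain. Sod1, which removes superoxide, stood at 212 and 325 CPM (0.70, 0.63 to 0.76) and was higher in 22 of 22 strata, while the second pair gave 0.32. Mrps6, a protein of the mitochondrial ribosome, stood at 75.5 and 118 CPM (0.72, 0.61 to 0.83, 22 of 22 strata). Slc5a3, a carrier of myo-inositol, had the smallest ratio of the group, at 13.5 and 15 CPM (0.24, -0.07 to 0.55). Rwdd2b had the largest, at 5.92 and 11.7 CPM (1.06, 0.69 to 1.43). The annotated loci of Slc5a3 and Mrps6 overlap, and reads from overlapping genes cannot be told apart without strand, whose use in counting the sources here do not state. Of the tested segment genes 10 lie in such a pair: Atp5j with Gabpa, Usp16 with Cct8, Son with Donson, Pigp with Ttc3, and Slc5a3 with Mrps6.

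Besides receptor genes, the group named for cytokine receptors and interferon response held Jam2 and Bach1. This group was above the median in 6 of 6 genes (0.51), with 1 past 1.5-fold. In the second pair its median was 0.92 with 6 past 1.5-fold. Ifnar2, a chain of the receptor for type I interferon, stood at 23.3 and 35.5 CPM (0.69, 0.48 to 0.90) and was higher in 17 of 20 strata. Ifnar1, the other chain, stood at 13.5 and 16.7 CPM (0.39, 0.11 to 0.67). Ifngr2, a chain of the receptor for interferon gamma, stood at 31.2 and 43.6 CPM (0.56, 0.39 to 0.74) and was higher in 19 of 20 strata. Among these receptors Ifnar2 alone lay past 1.5-fold, and its interval overlaps that of Ifnar1. Il10rb, shared by receptors of the interleukin-10 family, stood at 8.46 and 11.3 CPM (0.50, 0.13 to 0.87), although it was higher in only 1 of 3 strata. Jam2, a junction protein of the vessel wall, stood at 28.1 and 38 CPM (0.51, 0.32 to 0.71). Bach1, a repressor of haem oxygenase, was the lowest at 6.81 and 6.92 CPM (0.10, -0.34 to 0.54), against 0.73 in the second pair. Downstream, the 14 measured of 35 interferon-stimulated genes had a median of 0.08 with 8 above. Of them 0 passed 1.5-fold in either direction, near the share of 1.87% of genes outside the segment. In the second pair the same list had a median of 0.53 with 13 of 14 above. There 6 were at least 1.5-fold higher, where 0.57% of genes outside the segment were. The difference between the pairs was not tested. Ifi27, a membrane protein induced by interferon, stood at 54 and 62.1 CPM (0.28, 0.13 to 0.43). Ifi27l2a, a relative of it, stood at 10.3 and 6.85 CPM (-0.51, -0.95 to -0.07), but its direction rested on FB (107 and 18 UMIs). Without FB the ratio of Ifi27l2a was 0.82.

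The group named for kinases and calcineurin had a median of 0.55 with 6 of 7 above. It was not made of such genes alone, since it also held Tiam1, Cct8 (0.57), Itsn1 (0.41) and Psmg1 (0.65). Tiam1, an activator of Rac in dendrites, stood at 49.3 and 84.8 CPM (0.86, 0.73 to 0.99), higher in 14 of 17 strata, but at 0.39 in the second pair. With matching on region only Tiam1 had 0.40, and with no matching 0.33. Dyrk1a stood at 39.6 and 47 CPM (0.33, 0.16 to 0.49), higher in 14 of 20 strata. Rcan1, which inhibits calcineurin, stood at 35 and 48.5 CPM (0.55, 0.39 to 0.72), higher in 18 of 21 strata. In the first pair the counting interval of Tiam1 lies wholly above 1.5-fold and that of Dyrk1a wholly below it. This contrast was absent in the second pair, where Tiam1 and Dyrk1a both had 0.39. Hunk, a kinase related to AMPK, was the lowest, at 11 and 10.2 CPM (-0.03, -0.38 to 0.32), with 0.22 in the second pair.

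Genes of synapse, axon and excitability had a median of 0.63, with 10 of 10 above and 7 past 1.5-fold. Grik1, a kainate receptor subunit, had the largest ratio of the segment, at 6.51 and 16.9 CPM (1.46, 1.13 to 1.79). It was higher in 4 of 4 strata that held enough UMIs (at least 20 over both sections), and the second pair gave 0.95. App had the smallest ratio of the group, at 928 and 1146 CPM (0.38, 0.35 to 0.42), although it was higher in 21 of 22 strata. In CNU App stood at 593 and 896 CPM, in Cortex SSp at 987 and 1088 CPM, in Hippocampus at 644 and 747 CPM and in FB at 1256 and 1499 CPM. Among the 10 regions the highest log2 ratio of App, in CNU, was 0.60 with no median taken off. Over all strata its whole counting interval lies below 1.5-fold. The value of 0.42 in the second pair, whose sections both carry the human APP transgene, also lies below that size. Synj1, a lipid phosphatase of synaptic vesicle recycling, stood at 204 and 275 CPM (0.51, 0.44 to 0.58, 22 of 22 strata). Itsn1, an endocytic scaffold, stood at 51.2 and 64.5 CPM (0.41, 0.27 to 0.56, 17 of 21 strata). Pcp4, a calmodulin regulator, was the most abundant segment gene, at 2431 and 3484 CPM (0.60, 0.58 to 0.62). It was higher in 17 of 22 strata: Thalamus stood at 6763 and 9463 CPM, while Cortex RSP, IL stood at 692 and 662 CPM. Without matching, Pcp4 had the opposite sign (-0.10). Kcnj6, a potassium channel of the segment, was below the filter.

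Chromatin and transcription genes had the lowest median of the role groups, 0.49, with 12 of 13 above and 2 past 1.5-fold. Hmgn1, which loosens nucleosomes, stood at 99.5 and 139 CPM (0.56, 0.46 to 0.66, 21 of 22 strata). Olig1, a factor of the oligodendrocyte lineage, stood at 230.4 and 291 CPM (0.41, 0.34 to 0.49), and Olig2, its relative, at 36.2 and 50.4 CPM (0.56, 0.37 to 0.74). Both were higher, and the intervals of Olig1 and Olig2 overlap. Usp16, a histone deubiquitinase, had the highest ratio of the group, at 13.9 and 22.2 CPM (0.75, 0.50 to 1.00, 12 of 12 strata), against 0.24 and 6 of 13 strata in the second pair. Prdm15, a zinc-finger regulator, had the lowest of the segment, at 6.10 and 5.20 CPM (-0.15, -0.63 to 0.33). Zbtb21, another zinc-finger gene, stood at 10.1 and 12 CPM (0.33, -0.01 to 0.66).

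Genes of protein turnover, trafficking and metabolism had a median of 0.59 with 17 of 18 above and 9 past 1.5-fold. Ttc3, a ubiquitin ligase, stood at 418 and 522 CPM (0.40, 0.35 to 0.45, 21 of 22 strata), and Tmem50b, a membrane protein, at 101 and 141 CPM (0.55, 0.46 to 0.65, 22 of 22 strata). Son, a splicing cofactor, stood at 99.4 and 127 CPM (0.44, 0.33 to 0.54). Donson, a replication factor whose locus overlaps Son, stood at 6.65 and 12 CPM (0.93, 0.57 to 1.29). Usp25, a deubiquitinase, was low within the segment at 17.4 and 20.6 CPM (0.32, 0.06 to 0.57). Bace2, a protease related to the beta-secretase, stood at 4.19 and 7.10 CPM (0.84, 0.38 to 1.30), with 0.12 in the second pair. The segment's highest ratios at 10 CPM or more also held Cfap298, a ciliary protein, at 37.9 and 63.2 CPM (0.82, 0.67 to 0.97, 21 of 21 strata). Cxadr, a cell adhesion receptor, stood at 8.40 and 14.3 CPM (0.85, 0.54 to 1.16), and N6amt1, a methyltransferase, at 9.62 and 15.6 CPM (0.78, 0.47 to 1.09).

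Outside the segment a small share of genes stood apart. Of 10843 genes, 81 were at least 1.5-fold higher in Dp16 (0.747%) and 122 were lower (1.13%). Together these are 1.87% of the genes, against 1.16% in the second pair (0.57% higher and 0.588% lower). For 5xFAD over wild-type, a pair that does not differ in the duplication but shares the wild-type section, the share was 2.24%. The spread of the ratios (SD across genes) was 0.25 in the first pair and 0.20 in the second. Without matching the counts were 228 higher and 193 lower, of which 45 and 47 were also found with matching.

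Immediate early genes were lower in Dp16, most of all in the cortex. These genes are transcribed within minutes of neuronal firing, among other stimuli, and many encode transcription factors or synaptic regulators. Of 28 genes in the list 26 were measured: 21 lay below the median, 11 were at least 1.5-fold lower and 1 was 1.5-fold higher, with a list median of -0.49. Among all genes outside the segment 49.7% lay above the median, 1.13% were at least 1.5-fold lower and 0.747% higher. Egr1, a zinc-finger factor, stood at 169 and 89.3 CPM (-0.84, -0.94 to -0.74) and was lower in 18 of 21 strata. Fos, a subunit of the AP-1 factor, stood at 52.9 and 26.6 CPM (-0.91, -1.09 to -0.73, lower in 16 of 19 strata). Arc, a regulator of receptor endocytosis at synapses, stood at 97.4 and 48.6 CPM (-0.92, -1.06 to -0.79, lower in 15 of 20 strata). The intervals of Egr1, Fos and Arc overlap one another. Nr4a1, an orphan nuclear receptor, stood at 76.2 and 38.4 CPM (-0.91, -1.06 to -0.76, lower in 17 of 19 strata). Klf10, a zinc-finger factor, had the lowest ratio, at 22.9 and 10.1 CPM (-1.10, -1.38 to -0.82, lower in 15 of 16 strata). The other members at least 1.5-fold lower were Dusp1 (-0.81), Fosb (-0.81), Per1 (-0.80), Egr4 (-0.74), Nr4a3 (-0.73) and Fosl2 (-0.62). Dusp6, a phosphatase that limits ERK signalling, missed that size at -0.57 and was lower in 17 of 17 strata.

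Not every member was lower. Jund, an AP-1 subunit, stood at 201 and 226 CPM (0.25, 0.17 to 0.33), higher in 15 of 22 strata. Jun (51.4 and 50.8 CPM, 0.06, -0.09 to 0.22) and Ier2 (22.6 and 23 CPM, 0.11, -0.11 to 0.33) lay near the median. Btg2, an antiproliferative factor, stood at 13.5 and 16.8 CPM (0.40, 0.14 to 0.65). Npas4, a factor induced by calcium entry into neurons, was the single member past 1.5-fold on the higher side, at 8.08 and 12.2 CPM (0.67, 0.36 to 0.98, 6 of 7 strata). Members in between were Nptx2 (-0.49), Junb (-0.48), Ier5 (-0.40), Gadd45b (-0.40), Homer1 (-0.34), Egr3 (-0.31), Nr4a2 (-0.25), Midn (-0.19) and Bdnf (-0.13).

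**Figure D2:**
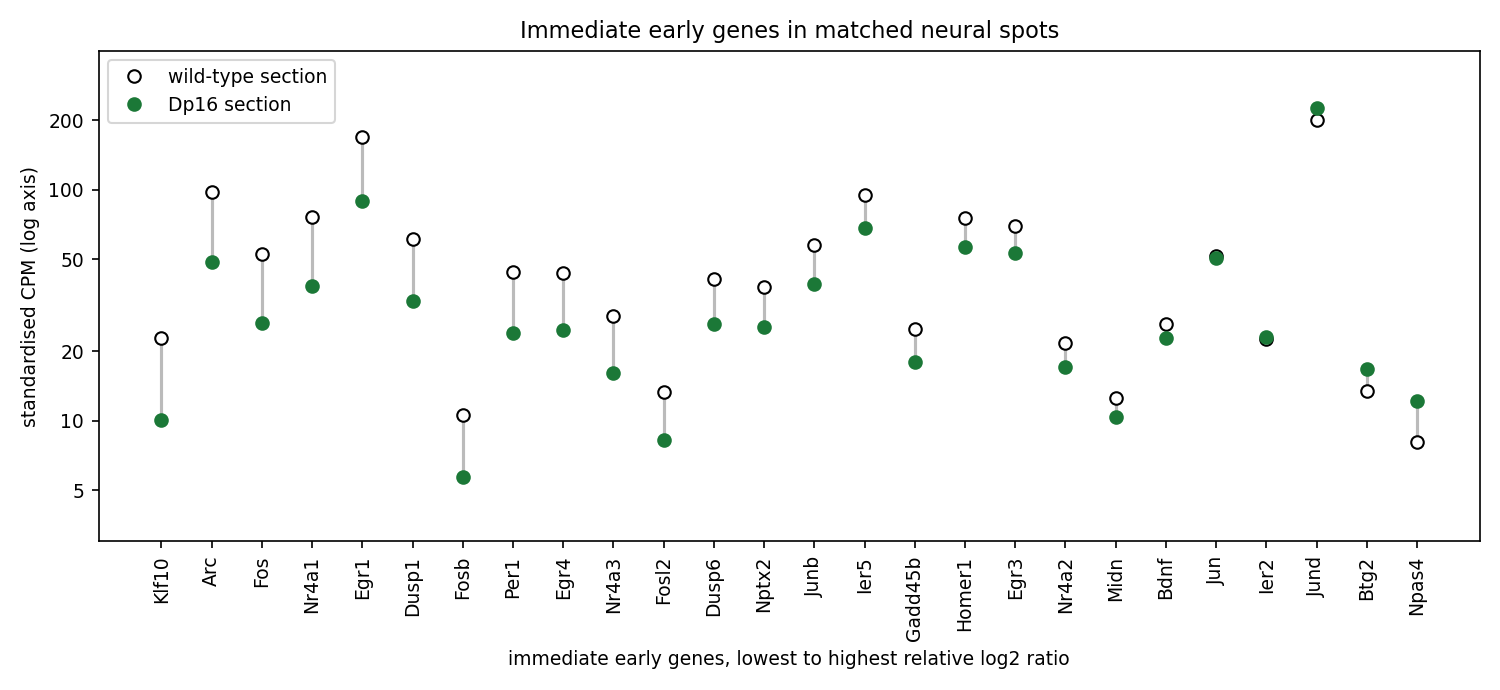
Standardised CPM (log axis) of the 26 measured immediate early genes in the wild-type section (open circles) and the Dp16 section (filled circles), ordered by relative log2 ratio. From Klf10 to Bdnf the filled circles lie below the open ones, and for Jund, Btg2 and Npas4 they lie above.

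By region, the list's median was lowest in Cortex AUC (-0.82) and was above 0 in CNU alone (0.29), with Cortex SSp at -0.59, FB at -0.34, Thalamus at -0.26 and Hippocampus at -0.09. Egr1 stood at 530.1 and 202 CPM in Cortex AUC, at 469 and 212 CPM in Cortex SSp and at 50.6 and 43.4 CPM in Hippocampus. In CNU Egr1 was not lower, at 99.6 and 115 CPM, nor was Fos, at 17.2 and 45.6 CPM. Arc stood at 299 and 84.7 CPM in Cortex AUC and at 8.52 and 13.1 CPM in Thalamus, where it is scarce. By stratum 18 of 22 medians were below 0, the lowest being Cortex AUC, cluster 9 (-1.20) and FB, cluster 9 (-1.09). Median UMIs per spot also differed between the sections: they were 18788 and 8668 in Cortex AUC, cluster 2, where the list's median was -1.07. They were 10190 and 10826.5 in Cortex SSp, cluster 2 (-0.77), 8900 and 8986 in Cortex SSp, cluster 5 (-0.53), and 12821 and 15678 in Cortex OLF, cluster 7 (-0.47). Over the 12 strata whose depths lay within 1.25 times of each other the list's median was -0.43, and the part of depth was not tested. In the second pair the list's median was -0.09 with 18 of 26 below. Over the 20 strata common to all 4 sections (in the order wild-type, Dp16, 5xFAD, 5xFAD-Dp16) Egr1 stood at 175, 92.2, 119 and 103 CPM, so that wild-type was the highest of the 4.

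**Figure D3:**
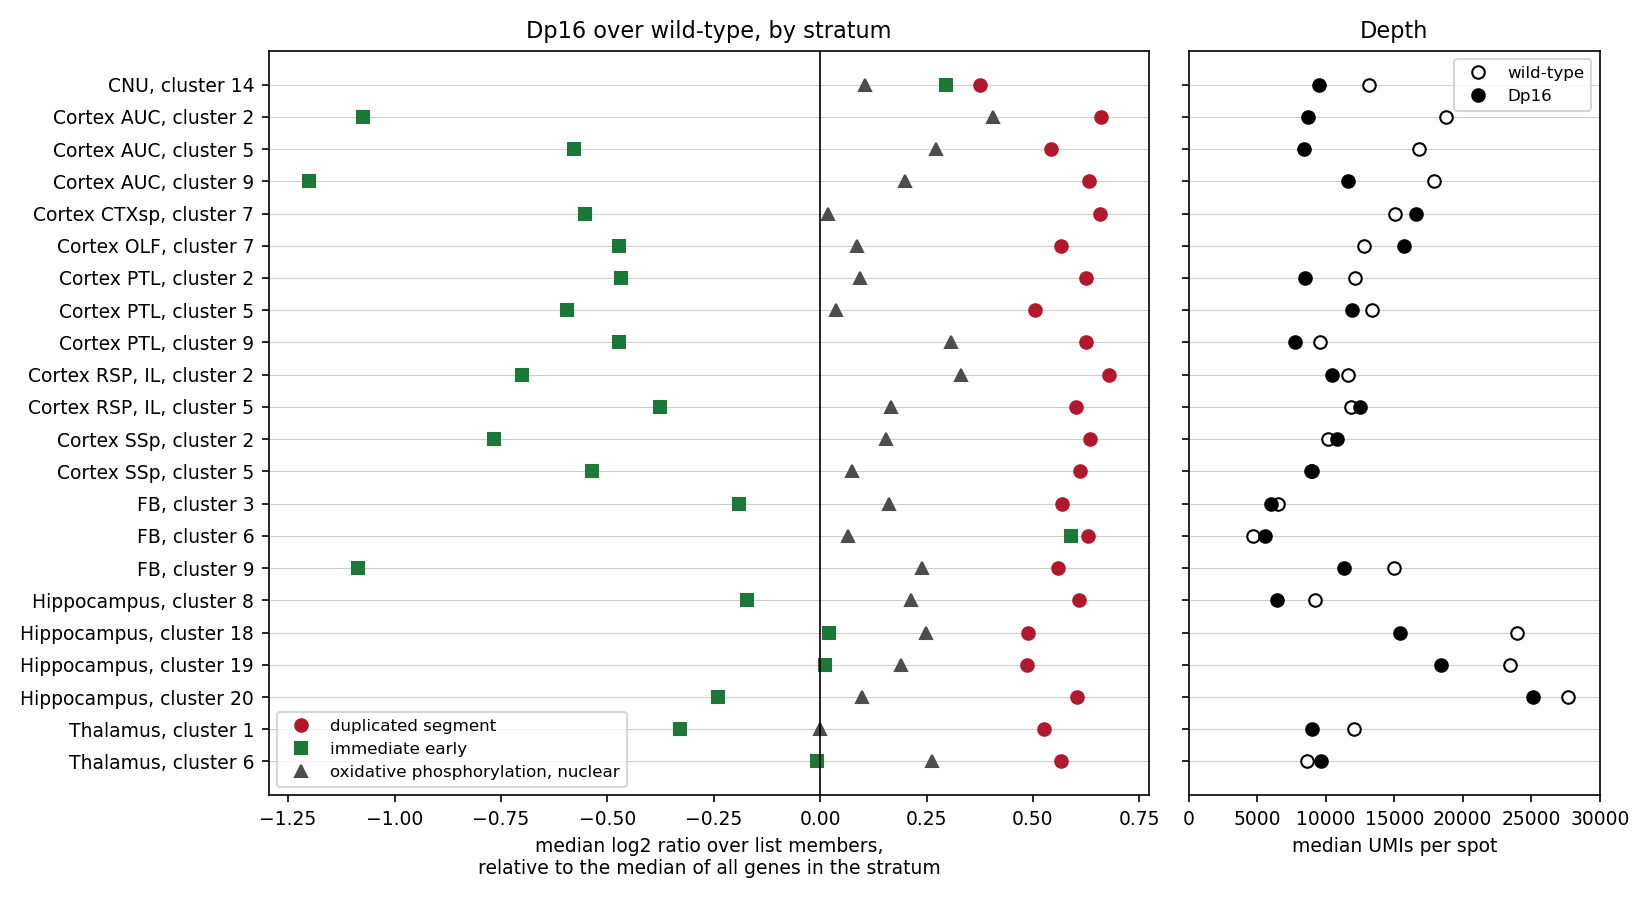
Left, median log2 ratio over list members in each of the 22 strata (rows), relative to the median of all genes in the stratum, for the duplicated segment (circles), immediate early genes (squares) and nuclear genes of oxidative phosphorylation (triangles). Right, median UMIs per spot in both sections. The circles lie between 0.38 and 0.68 in every row, while the squares range from -1.20 to 0.59, with FB, cluster 6 resting on 1 gene.

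The promoters of immediate early genes are shown so that lower and other members can be compared in sequence. A known route to these genes is the factor CREB, which binds the core TGACG, which reads CGTCA on the opposite strand. Promoter windows from RefSeq (GRCm38.p6) matched 20 of the 26 measured genes, 8 of them at least 1.5-fold lower. Arc, Egr1, Egr3, Ier2, Klf10 and Nptx2 had no entry. A gene was counted where any of its windows held the core in the 250 bases before the start. Genes with more windows thus had more chances. The core on either strand was present in 7 of the 8 lower genes (87.5%) and in 7 of the 12 others (58.3%). Among the others with the core were Btg2 and Npas4, which were higher in Dp16, and Fosl2 was the lower gene without it. It was present in 31.9% of 8684 tested genes with any window, and in 17.8% of 32851 windows. The palindrome TGACGTCA, which holds the core on both strands, was present in 1 of the 8 lower genes (Dusp1), in 1 of the 12 others and in 3.26% of tested genes. The stretches below are 150 bases long and lie upstream of 5 lower genes, with and without the core, and of 2 others, Nr4a2 with it and Jund without it, 5′ to 3′ along each gene, with the core in capitals. They lie at chr12:85473740-85473889 (plus strand, Fos), chr15:101266696-101266845 (plus, Nr4a1), chr17:26508473-26508622 (minus, Dusp1), chr11:69100002-69100151 (plus, Per1), chr5:32136322-32136471 (plus, Fosl2), chr2:57124004-57124153 (minus, Nr4a2) and chr8:70697589-70697738 (plus, Jund).
Fos: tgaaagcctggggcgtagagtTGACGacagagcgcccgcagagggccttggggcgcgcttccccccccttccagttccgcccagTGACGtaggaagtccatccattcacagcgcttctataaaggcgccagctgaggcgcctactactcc
Nr4a1: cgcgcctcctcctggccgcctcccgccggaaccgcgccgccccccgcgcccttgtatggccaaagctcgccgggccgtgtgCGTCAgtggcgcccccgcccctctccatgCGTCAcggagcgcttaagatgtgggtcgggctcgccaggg
Dusp1: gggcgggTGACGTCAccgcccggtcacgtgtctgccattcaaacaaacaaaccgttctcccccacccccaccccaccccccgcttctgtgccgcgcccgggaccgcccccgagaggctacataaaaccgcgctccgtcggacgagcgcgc
Per1: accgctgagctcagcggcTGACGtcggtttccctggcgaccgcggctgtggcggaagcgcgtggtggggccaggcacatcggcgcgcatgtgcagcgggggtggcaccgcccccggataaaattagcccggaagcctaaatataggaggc
Fosl2: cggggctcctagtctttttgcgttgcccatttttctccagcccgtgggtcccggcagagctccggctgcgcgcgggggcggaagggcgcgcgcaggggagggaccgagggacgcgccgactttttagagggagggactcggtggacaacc
Nr4a2: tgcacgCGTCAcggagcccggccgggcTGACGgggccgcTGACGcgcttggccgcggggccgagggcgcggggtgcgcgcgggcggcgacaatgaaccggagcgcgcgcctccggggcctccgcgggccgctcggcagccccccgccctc
Jund: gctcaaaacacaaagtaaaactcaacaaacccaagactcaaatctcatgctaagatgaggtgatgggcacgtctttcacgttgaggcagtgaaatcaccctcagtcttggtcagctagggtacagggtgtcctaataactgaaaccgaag
In Fos the cores begin 129 and 66 bases before the start, in Nr4a1 69 and 40, in Dusp1 143 and 140, where they overlap in the palindrome, and in Per1 132. The Nr4a2 stretch holds 3, and those of Fosl2 and Jund hold none. Per1 has 2 windows, and the 150 bases of the other one, not shown, hold none. A match in letters is a description and not a binding site.

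Genes of mitochondrial respiration and of ribosomes were slightly higher in Dp16, nearly all by less than 1.5-fold. Of 72 nuclear genes of oxidative phosphorylation 68 lay above the median, with a list median of 0.14 (0.12 and 63 above in the second pair), and 0 passed 1.5-fold. Cox8a, a subunit of cytochrome oxidase, stood at 2440.0 and 2649 CPM (0.20, 0.18 to 0.22, 22 of 22 strata). Ndufs1, a complex I subunit, had the lowest ratio, at 119.7 and 107 CPM (-0.08, -0.18 to 0.02). Mitochondrial ribosomal proteins had a median of 0.13 with 59 of 64 above (0.17 and 58 in the second pair). The 13 genes of the mitochondrial genome were above in 13 of 13 (0.18). Their median ranged over regions from -0.50 in Cortex OLF to 0.77 in Cortex AUC. Over strata of like depth it was 0.01, and the part of depth was not tested. Cytosolic ribosomal protein genes lay above in 71 of 71, with a median of 0.22 (0.07 and 50 of 71 in the second pair). Rpl35 was the one past 1.5-fold, at 532 and 851 CPM (0.76, 0.72 to 0.80, 22 of 22 strata), and Rpl5 the lowest, at 580.1 and 559.7 CPM (0.03, -0.02 to 0.08). With the median not taken off, each of these ratios is lower by 0.08 on the log2 scale.

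Synaptic, GABA receptor and channel genes had medians slightly below 0 in both pairs. The presynaptic list had -0.08 with 24 of 32 below (-0.10 and 27 below in the second pair), and the postsynaptic list -0.07 with 26 of 41 below (-0.13 and 34). Snap25, of the vesicle fusion complex, stood at 2656 and 2171 CPM (-0.21, -0.23 to -0.19) and was lower in 20 of 22 strata. Shank3, a postsynaptic scaffold, stood at 42 and 26.5 CPM (-0.58, -0.79 to -0.38), against 0.72 in the second pair. Of 15 measured genes of GABA receptors 14 lay below (-0.08, and -0.17 with 12 below in the second pair). Gabra3, a receptor subunit, stood at 29.8 and 16.1 CPM (-0.81, -1.05 to -0.57, lower in 12 of 14 strata). Sodium and calcium channel genes had -0.13 with 16 of 22 below (-0.12 and 17), and potassium channel genes -0.06 with 24 of 39 below. Cacna1i, a T-type calcium channel, was the lowest of these channels at 17.2 and 11.2 CPM (-0.54, -0.82 to -0.26). Inhibitory neuron genes had -0.09 with 14 of 21 below, but 0.06 with 12 of 21 above in the second pair, and 0.11 in the first pair with no matching. Among them the peptide gene Cort stood at 34.9 and 60.9 CPM (0.88, 0.73 to 1.03, 15 of 18 strata) and the serotonin receptor gene Htr3a at 7.04 and 3.37 CPM (-0.98, -1.51 to -0.46). The summed CPM of the 5 neuronal markers, with no median taken off, was lower in Dp16 in 21 of 22 strata. Snap25 made up most of that sum. Syt1 stood at 639 and 535 CPM, Map2 at 198 and 167, Rbfox3 at 106 and 91.6, and Tubb3 at 295 and 290. The part of neuronal content in the values of these lists was not tested.

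**Figure D4:**
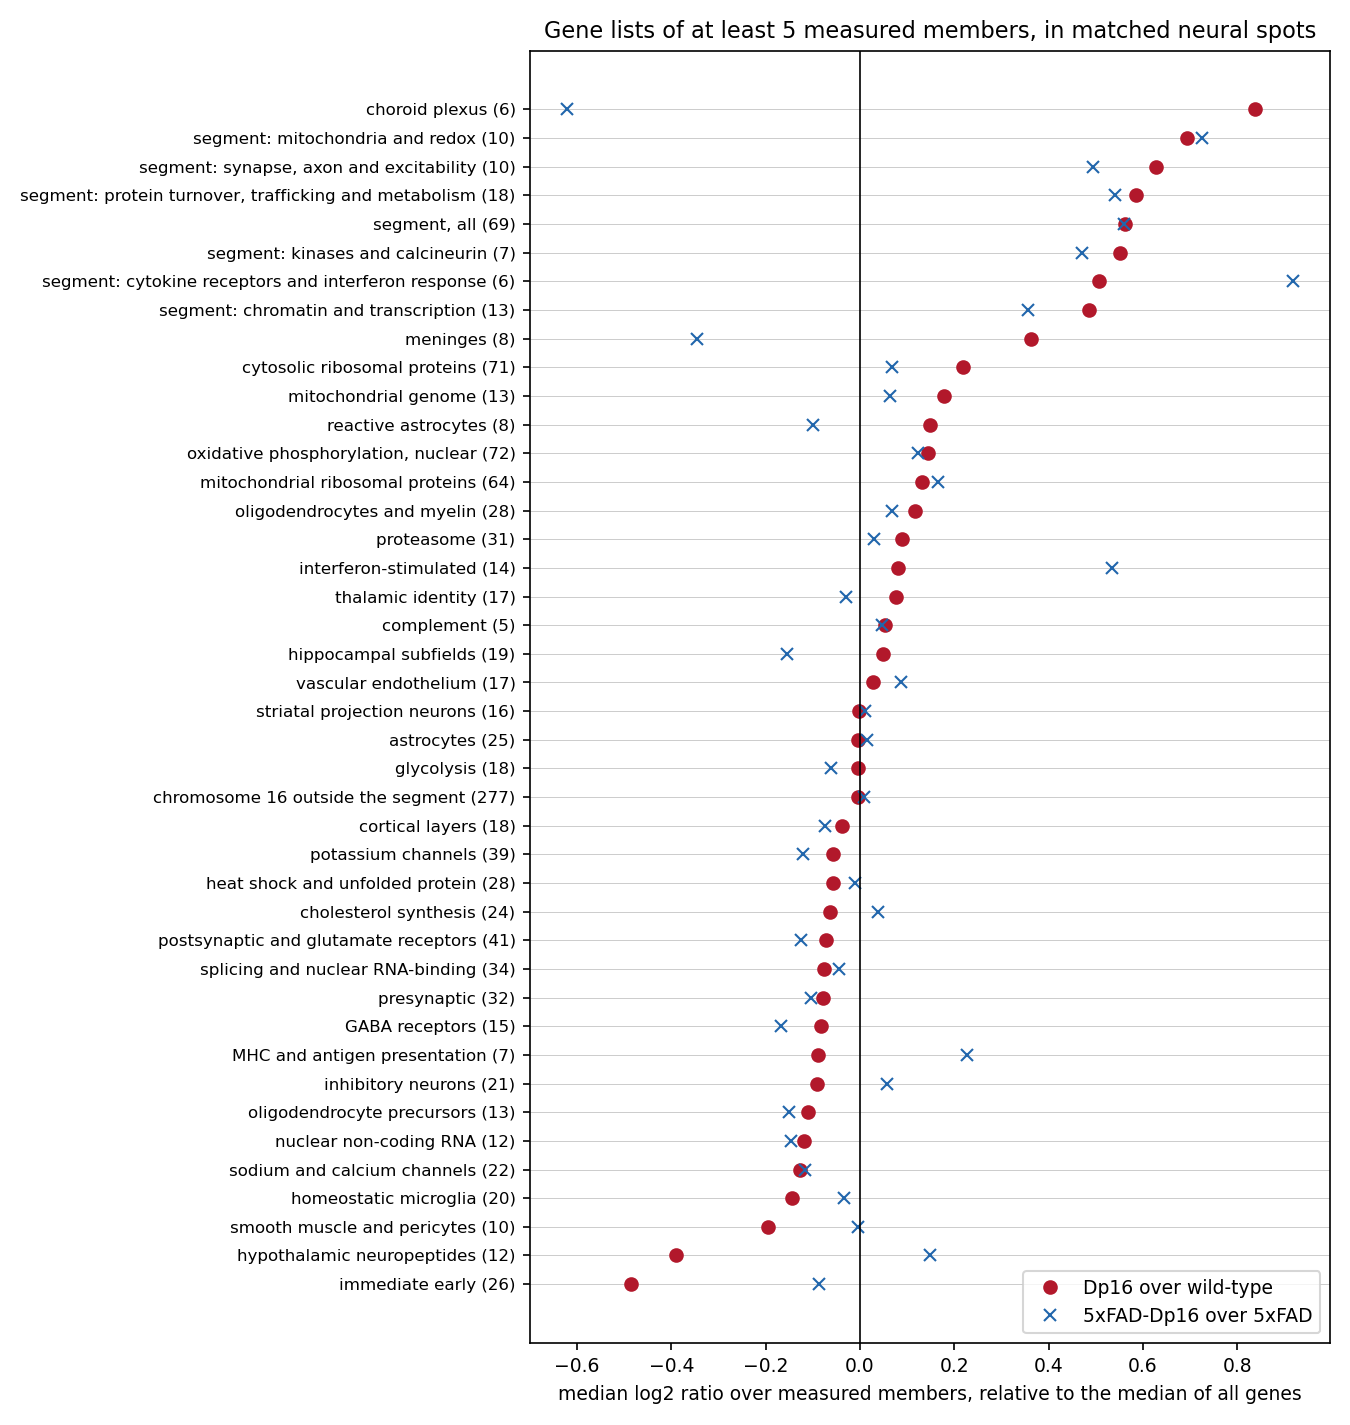
Median log2 ratio of each gene list with at least 5 measured members (number in brackets), relative to the median of all genes, for Dp16 over wild-type (circles) and 5xFAD-Dp16 over 5xFAD (crosses). The segment and its role groups lie between 0.36 and 0.92 in both pairs, immediate early genes at -0.49 and -0.09, and choroid plexus on opposite sides at 0.84 and -0.62.

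Homeostatic microglia genes lay below in 15 of 20 (-0.14, and -0.03 in the second pair), the lowest being Cx3cr1, the fractalkine receptor, at 16.8 and 11.6 CPM (-0.45, -0.78 to -0.12). Complement genes had 0.05 over 5 members, with C4b at 26.4 and 36.3 CPM (0.54, 0.32 to 0.77), and antigen presentation genes had -0.09 over 7. Astrocyte genes had -0.00 over 25. Gja1, the astrocytic gap junction protein, stood at 124 and 80.5 CPM (-0.54, -0.66 to -0.42), and the metallothionein gene Mt1 at 1734 and 2075 CPM (0.34, 0.31 to 0.36). Of the reactive astrocyte list 8 of 23 were measured, 4 above and 4 below. Gfap, an intermediate filament of astrocytes, stood at 76.8 and 111 CPM (0.62, 0.49 to 0.75, 9 of 13 strata), with FB at 308 and 494 CPM and Cortex RSP, IL at 10.8 and 3.43 CPM. Oligodendrocyte genes had 0.12 with 22 of 28 above, and the median turned to -0.14 when clusters were not matched. Mbp stood at 4121 and 4116 CPM (0.08, 0.06 to 0.10) and Aspa, which breaks down N-acetylaspartate, at 55.9 and 71.5 CPM (0.43, 0.28 to 0.59). Precursor genes had -0.11 with 9 of 13 below, the lowest being Lhfpl3 at 27.6 and 17.4 CPM (-0.58, -0.84 to -0.32). Endothelial genes had 0.03, and smooth muscle and pericyte genes -0.20 with 9 of 10 below. Other lists had medians within 0.1 of 0: cholesterol synthesis -0.06, heat shock -0.06, proteasome 0.09, glycolysis -0.00 and splicing -0.08. Nuclear non-coding RNA had -0.12 over 12 members.

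Transcripts of blood and choroid plexus, which are not neural, also differed between the matched spots, while meningeal genes went both ways. Of the haemoglobin genes 4 of 4 measured were at least 1.5-fold lower in Dp16, where 1.13% of genes outside the segment were. The list's median was below 0 in 10 of 10 regions. Hbb-bs stood at 374 and 128 CPM (-1.47, -1.56 to -1.38), Hbb-bt at 49.9 and 14.2 CPM (-1.73, -1.99 to -1.47), and Hba-a1 and Hba-a2 had -1.16 and -1.38. Ttr, the transthyretin gene of the choroid plexus, stood at 474 and 2293 CPM (2.36, 2.32 to 2.39) and was higher in 18 of 22 strata. In CNU Ttr stood at 1846 and 22287 CPM, in FB at 1325 and 6154 CPM and in Cortex AUC at 916 and 595 CPM. The 6 measured of 22 choroid plexus genes had a median of 0.84 (-0.62 in the second pair). Kl and Car12 of this list, and Myoc and Aebp1 of the meningeal list, were below 5 CPM in wild-type and passed the filter through Dp16, so that these medians are a description only. The 5 defining markers of the choroid plexus summed to 485 and 2324 CPM. Over strata the sum ran from 56.5 to 1874.5 CPM in wild-type and from 228 to 22536 CPM in Dp16. Nearly all of this sum was Ttr. The others were scarce: Kcne2 at 0.421 and 3.28 CPM, Folr1 at 1.61 and 7.09, Kl at 4.14 and 7.08, and Ecrg4 at 5.19 and 13.4. Meningeal genes had 0.36 over 8 members (-0.35 in the second pair), among them Ptgds, a prostaglandin synthase, at 1085 and 1709 CPM (0.74, 0.70 to 0.77). The 5 defining markers of the meninges summed to only 24.3 and 26.7 CPM, and the sum was higher in Dp16 in 9 of 22 strata. Dcn (7.88 and 8.21 CPM), Igf2 (7.18 and 8.87) and Slc6a13 (3.32 and 5.14) were higher. Col1a1 (1.51 and 1.12 CPM) and Col1a2 (4.41 and 3.39) were lower. Lists that mark brain regions were closer to 0: cortical layers -0.04, striatum -0.00, thalamus 0.08 and hippocampus 0.05. These rest on the matching: under the alternatives run the thalamic list ranged down to -0.86 and the striatal list to -0.44. Hypothalamic neuropeptides had -0.39, with Pmch, the gene of melanin-concentrating hormone, at 58.7 and 0.570 CPM (858 and 9 UMIs, -6.61, -7.66 to -5.55), of which FB held 196 and 0.788 CPM. Gh, the pituitary growth hormone gene, stood at 15.1 and 0.0380 CPM, from 379 and 1 UMIs. Of the other defining markers, the pituitary genes Cga and Prl and the T cell gene Cd3e were at 0 in Dp16, and Ms4a1 was not in the table. The part of these tissues in the other results was not tested.

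A rule for single genes outside the segment asked for at least 10 CPM and for at least 75% of the strata on the gene's side. Strata counts of the genes named by it are thus high by choice. Of 8689 genes at that level with at least 5 strata, 1708 met the rule. Among those 1708 genes, 30 were 1.5-fold higher and 41 lower. Gstp1, a glutathione transferase, stood at 61.3 and 156 CPM (1.43, 1.31 to 1.55, 22 of 22 strata). Hmga1, an architectural chromatin protein, stood at 10.4 and 21.9 CPM (1.15, 0.87 to 1.44), and C1ql2, a synaptic organiser, at 13.2 and 26.2 CPM (1.07, 0.84 to 1.29). C1ql2 had 2.04 without Hippocampus and 0.68 with equal weights of strata. Besides these, Ttr and Cort, the 10 highest were Gm10076 (129 and 325 CPM, 1.42), Gm47283 (1.06), the peptide gene Grp (0.94), the RNA polymerase subunit gene Polr2l (0.86) and 2900052N01Rik (0.84). In the second pair Gstp1 had -0.84, Gm10076 -0.45, Hmga1 -1.08, C1ql2 -0.27, Grp 0.11, Polr2l -0.58 and 2900052N01Rik 0.36. Sgk1, a kinase induced by glucocorticoids, stood at 159.8 and 52.7 CPM (-1.52, -1.66 to -1.38) and was lower in 20 of 22 strata. In FB Sgk1 stood at 458 and 65.5 CPM. Klf2, a factor of the vessel wall and of T cells, stood at 41.7 and 14.1 CPM (-1.48, -1.74 to -1.22, lower in 15 of 15 strata). Besides these, Pmch, Klf10 and the haemoglobin genes, the 10 lowest held Gm49980 (38.2 and 12.8 CPM, -1.49) and Arl4d, a small GTPase (33.2 and 16 CPM, -0.98). In the second pair Sgk1 had 0.98, Klf2 0.49, Gm49980 0.54 and Arl4d 0.47.

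Outside the segment few of the genes past 1.5-fold in the first pair were past it in the second, in either direction. Of 71 genes that were 1.5-fold higher in the first pair and tested in both, 34 lay above the median in the second, 0 were 1.5-fold higher and 8 were 1.5-fold lower. Of 100 lower genes 56 lay below in the second, 4 were 1.5-fold lower and 5 were 1.5-fold higher. Among all genes outside the segment in the second pair 49.7% lay above the median. There 0.57% were at least 1.5-fold higher and 0.588% lower. The 4 lower in both, named after their values were seen, were the synaptic organiser C1ql3 (-0.63 and -0.97), the potassium channel subunit Kcng1 (-0.59 and -0.59), the collagen chain Col9a3 (-0.95 and -0.88) and Cbs (-0.68 and -0.88), which makes cystathionine. Cbs lies outside the duplicated stretch in the mouse, although its human counterpart is on the trisomic chromosome. For 10664 genes Pearson's r between the pairs was 0.15 and Spearman's rho 0.24, as a description across genes, which are not independent replicates.

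**Figure D5:**
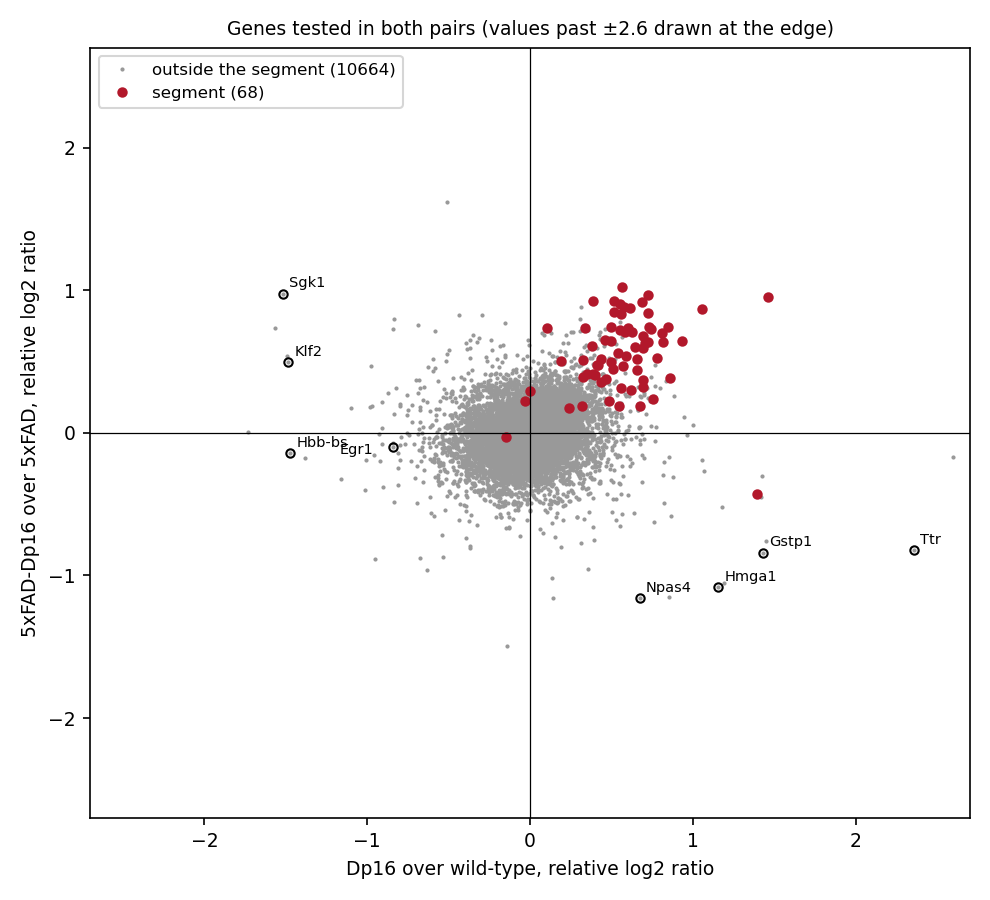
Relative log2 ratio of each gene tested in both pairs, Dp16 over wild-type on the horizontal and 5xFAD-Dp16 over 5xFAD on the vertical axis (values past 2.6 drawn at the edge), with 10664 genes outside the segment (grey) and 68 segment genes (red). Of the red points 64 lie in the upper right quadrant, while Ttr, Gstp1 and Sgk1 lie on opposite sides of 0 in the 2 pairs.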

How the data were processed

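Visium sections of 4 mouse brains were used, 1 per genotype. The deposited matrix holds raw UMI counts of 19090 genes per spot, and the deposited spot table gives the percent of mitochondrial counts, section, region and cluster. Space Ranger, Seurat and mm10 were used per the submitters' processing notes. Their versions are not given in the sources used here, nor is the way regions and clusters were made. The 2 sections share 2289 barcodes, which are slide positions. No spot was removed for depth and no doublet caller was run, since spots are not cells.

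UMIs were summed per section and stratum, scaled to CPM and averaged with weights from the pooled share of spots. Intervals (95%) come from the Poisson variance and cover counting error only. Spots are not replicates of a genotype, so edgeR 4.0.16 served only for TMM factors. A gene's strata were counted where both sections together held at least 20 UMIs. A list was taken to stand apart at a median of at least 0.1 from 0 with at least 5 members. Positions came from RefSeq for GRCm38 (18046 genes matched by symbol). Calculations were tested on simulated data (Python 3.11.15, numpy 2.4.6, scipy 1.17.1, pandas 2.3.3).

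Outside the segment the genes named were the 10 with the highest and the 10 with the lowest ratio, at 10 CPM or more and with at least 5 strata, 75% of them on the gene's side. In the segment they were 5 at either end and a set of known genes. In each list the 2 most abundant members and those with the highest and lowest ratio could be named, and every immediate early gene. The members, lists and rules were chosen with earlier results of these data known. Alternatives were other scalings, weights, estimators, matchings, filters and folds, and leaving out each region. Finer region names, leaving out strata of very unequal size, and strata of like depth were chosen after seeing the data.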

Additional observations from a re-analysis of the deposited data

Results flagged for a closer look

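Some genes lay past 1.5-fold in opposite directions in the 2 pairs that add the duplication. The difference between the pairs was not tested, since each genotype has 1 section. In the first pair Ttr had a relative log2 of 2.36, and in the second -0.82. Gstp1 had 1.43 and -0.84, Hmga1 1.15 and -1.08, and Rpl35 0.76 and -0.63. Npas4 had 0.67 and -1.16, the meningeal gene Myoc 1.19 and -1.05, and Sgk1 -1.52 and 0.98.

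Levels over the strata common to the 4 sections follow in the order wild-type, Dp16, 5xFAD, 5xFAD-Dp16. Ttr stood at 498, 2253, 2451 and 1508 CPM, Gstp1 at 60.5, 156, 83.7 and 50.7 CPM and Myoc at 4.84, 10.3, 17.6 and 4.90 CPM. Rpl35 stood at 530.5, 847, 876 and 541 CPM, Npas4 at 8.06, 13, 12.8 and 4.84 CPM and Hmga1 at 10.1, 21.1, 12.5 and 5.56 CPM. Sgk1 stood at 159, 52.2, 73.7 and 147 CPM. For Ttr, Gstp1, Myoc, Rpl35, Npas4 and Hmga1 the Dp16 and 5xFAD sections were the higher ones, and for Sgk1 the lower ones.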

How the results depend on the processing

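The segment's median stayed between 0.48 and 0.60 under the alternatives run. It was 0.48 with no median taken off, and 0.55 to 0.59 leaving out each region in turn. The counts outside the segment (81 higher, 122 lower) moved more. With nothing taken off 196 were lower, and 22.8% of the genes past 1.5-fold were higher, against 39.9%. With matching on region only 161 were higher (49.5%), and with none 228 higher and 193 lower (54.2%). Without mitochondrial, ribosomal protein and haemoglobin genes 130 were higher. At a filter of 1 CPM there were 488 and 451 (52.0%), at 20 CPM 18 and 35, at a fold of 2 13 and 18, and in strata of like depth 176 and 320. Leaving out regions gave 84 to 123 higher and 120 to 154 lower, the highest of both without Thalamus. Some values changed sign. With matching on region only and with none, oligodendrocytes had -0.14 and -0.16 (-0.018 at like depth), hypothalamic neuropeptides 0.16 and 0.26, and Tnnt1, a thalamic gene at 1.00, -0.22 and -0.52 (-0.28 at like depth). With none, smooth muscle had 0.024 and Pcp4 -0.10. Reactive astrocytes had -0.082 without those gene classes and -0.081 at 1 CPM. Leaving out regions, oligodendrocyte precursors ranged from -0.21 to 0.0099 (without FB), smooth muscle from -0.29 to 0.029 (without Thalamus) and Myoc from -0.13 (without FB) to 1.36. The immediate early median stayed between -0.66 and -0.42. TMM factors moved the median of all genes from -0.08 to -0.01. The cause of these shifts was not tested. No paired analysis was possible because each genotype has 1 section. Fewer and shallower Dp16 spots limit precision for genes near 5 CPM.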

Other observations

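Some genes with a near-identical copy in the mouse genome were looked at beside it, chosen after their values were seen. The glycolytic gene Eno1 stood at 256 and 355 CPM (wild-type first), while its copy Eno1b stood at 31.0 and 16.5 CPM. Hmga1 stood at 10.4 and 21.9 CPM, while its copy Hmga1b stood at 6.24 and 3.93 CPM. Gstp1 stood at 61.3 and 156 CPM, and Gstp2 was nearly absent, at 0.391 and 0.484 CPM from 7 and 5 UMIs. Gm10076 stood at 129 and 325 CPM, beside its far more abundant copy Rpl41 at 2360 and 2703 CPM. How reads that match both copies were counted was not stated, so the level of each copy is uncertain. Eno1 had a relative log2 of 0.55 in the first pair and -0.65 in the second.

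A list of glucocorticoid-responsive genes, chosen after the value of Sgk1 was seen, had a median of -0.51 in the first pair. Of its 12 measured members 10 lay below and 6 were at least 1.5-fold lower, where 1.13% of genes outside the segment were. Of these 6 members, Sgk1, Arl4d, Dusp1 and Per1 were already given as lower above, and Ddit4 and Nfkbia (-0.60) were not. The list's values are thus no separate support. In the second pair the same list had 0.22 with 8 above. Ddit4, a stress-induced inhibitor of mTOR signalling, stood at 41.6 and 24.5 CPM (-0.68, -0.89 to -0.47). Tsc22d3, a target of the glucocorticoid receptor, stood at 114 and 80.7 CPM (-0.41, -0.53 to -0.29), and Fkbp5, another, at 11.4 and 11.5 CPM (0.09, -0.24 to 0.41). A list of 17 circadian clock genes, chosen in the same way, had -0.07 with 12 below (-0.08 in the second pair), and its member Dbp stood at 95.7 and 96.5 CPM (0.09, -0.02 to 0.20).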
